A study of Homo sapiens with 19 samples.

Results

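hsa-miR-1246 and hsa-miR-3651, below miR-1246 and miR-3651, are 2 of the 1043 mature human miRNA names listed in small RNA libraries of Caco-2 cells, an established colorectal epithelial line, and of their medium. They were taken by name, miR-1246 for its likeness to U2 snRNA and miR-3651 for its place in SNORA84, with absent names counted as 0 and with their levels in these libraries already known. Their levels and differences below are therefore a description and carry no test. The series has 5 groups of wild-type cells or their products. All came from cells grown with 20% fetal bovine serum to 80% confluence and then kept for 24 h without serum and antibiotics. S100 is the supernatant left after a spin at 100000 xg (3 libraries used), P100 is the pellet of that spin (4), and P40 is the pellet of the preceding spin at 40000 xg (4). Total exRNA is the unfractionated medium cleared of debris (4), and lysate is the cells themselves (3). RNA of S100 and total exRNA was precipitated before Trizol and RNA of P100, P40 and lysate was not, so preparation and fraction cannot be told apart where these are compared. No label states separate cultures for the replicates, so spreads may be technical.

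U2 is the small nuclear RNA (snRNA) of the spliceosome that pairs with the branch point of introns. Its Sm site, a short run rich in U, binds the ring of Sm proteins around which the particle is built. Box H/ACA small nucleolar RNAs (snoRNAs) such as SNORA84 guide the conversion of uridine to pseudouridine in other RNAs and end in a conserved ACA box near their 3′ end. They are cut out of introns and stay mostly in the nucleolus. miR-1246 has often been described in extracellular vesicles and serum of tumours, and its origin from a hairpin or from U2 has been debated. Less is known of miR-3651, which was named from sequencing reads.

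The sequences are shown because each letter of both miRNAs is also a letter of a longer, structured RNA. The mature forms from RefSeq (GRCh38.p14) are given with the seed, bases 2 to 8, in capitals. miR-1290, a close relative in sequence, stands beside them.
miR-1246: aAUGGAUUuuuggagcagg
miR-3651: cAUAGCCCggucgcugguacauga
miR-1290: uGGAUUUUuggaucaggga
The next sequences show, in capitals, where the mature letters lie in the annotated hairpin of miR-1246 (RefSeq), in a stretch of U2 with 20 bases on each side, and in the whole of SNORA84 (both from GENCODE 29, GRCh38, written as DNA).
MIR1246 hairpin: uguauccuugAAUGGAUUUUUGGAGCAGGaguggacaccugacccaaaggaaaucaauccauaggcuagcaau
RNU2-1: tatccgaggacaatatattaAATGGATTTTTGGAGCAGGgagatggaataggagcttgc
SNORA84: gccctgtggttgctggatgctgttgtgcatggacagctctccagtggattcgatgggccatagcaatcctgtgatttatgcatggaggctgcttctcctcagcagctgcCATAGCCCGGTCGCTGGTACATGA

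The 19 bases of miR-1246 matched bases 94 to 112 of U2 (RNU2-1, 191 bases; the stretch shown is chr17:43233846-43233904, minus strand, within the bounds of CCDC200) with 0 mismatches. The annotated hairpin, at chr2:176600980-176601052 on the minus strand and in no other GENCODE gene, shared no run longer than those 19 bases with U2. Of 206694 GENCODE transcripts of any type, 20 held the miR-1246 sequence, and 19 of these were annotated as snRNA. The letters ATTTTTG, which hold the Sm site of U2, occurred once in U2, at bases 99 to 105, and these are bases 6 to 12 of miR-1246. The same letters on the transcript strand were found in 6.11% of 1900 snRNA transcripts. miR-1290 (chr1:18897078-18897096, minus strand, in ALDH4A1) matched U2 with 1 mismatch, T13G, counted from the 5′ end of miR-1290 with its base given before the one in U2. miR-1246 and miR-1290 shared a run of 12 bases, but this begins at base 3 of miR-1246 and at base 1 of miR-1290, so their seeds differ. No other name among 2370 mature names shared the seed of miR-1246 or of miR-3651.

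The 24 bases of miR-3651 were the last 24 of the 133 bases of SNORA84 (bases 110 to 133), with 0 mismatches. The miR-3651 hairpin (chr9:92292458-92292547, minus strand) lay in no exon of IARS, the gene of an isoleucyl-tRNA synthetase, but within that gene, and 87 of its 90 bases were bases of SNORA84. ACA stood 3 bases before the 3′ end of SNORA84, which places it at bases 19 to 21 of miR-3651. It was found at that place in 112 of 149 transcripts named SNORA (75.2%). Apart from its own hairpin and SNORA84, no GENCODE transcript held the miR-3651 sequence. A read made of exactly these 19 or 24 bases has the same letters whichever RNA it came from, and how the authors assigned reads that match other RNAs is not given in the sources used here. The deposited counts are per name and do not hold the letters of the reads themselves.

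The libraries held 198878 to 225290 counts in S100, 10017 to 27027 in P100, 10490 to 26096 in P40, 34427 to 61622 in total exRNA and 37453 to 157051 in lysate. S100 replicate 1 had 48 counts and was left out. Both miRNAs had counts in all 18 libraries used. Levels are given as counts and as CPM, counts per 1000000 after scaling library sizes by TMM, a trimmed mean of log ratios. CPM are shares of a library, so a larger amount of one miRNA and a smaller amount of the others cannot be told apart. A floor of 3 counts corresponds to 13.3 CPM in the deepest and 299 CPM in the shallowest library. Intestinal epithelial miRNAs, listed as markers of the cells, had counts for 8 of 8 listed names and made up 2.59% to 5.56% of the counts of every library. Counts were also present for 3 of 3 neural, 1 of 1 liver and 2 of 3 muscle names, so presence alone does not mark the cell type. Neural names made up at most 0.355% of any library, the liver name 0.083% and muscle names 0.057%.

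miR-1246, which shares its letters with U2, made up a larger share of every extracellular library than of any lysate library. In S100 replicates 2, 3 and 4 it had 986, 807 and 1192 counts, which are 5063, 3358 and 6249 CPM. In P100 replicates 1 to 4 it had 64, 64, 112 and 31 counts, or 3793, 2755, 4904 and 3145 CPM. P40 replicates 1 to 4 gave 60, 176, 308 and 80 counts, or 3761, 9459, 10651 and 6325 CPM. These 3 fractions overlapped in part, and P40 held both the highest level of all libraries and, in replicate 1, a level like that of P100. Total exRNA replicates 1 to 4 had 53, 97, 98 and 62 counts, or 1382, 1435, 1807 and 1722 CPM. Lysate replicates 1 to 3 had 21, 42 and 12 counts, or 733, 311 and 193 CPM. Lysate replicate 1 was the highest of its group, and it still lay below every total exRNA library.

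The order of the group means for miR-1246 was P40 (7549 ± 3115 CPM, SD, n = 4), S100 (4890.0 ± 1453, n = 3), P100 (3649 ± 939.7, n = 4), total exRNA (1586 ± 209, n = 4) and lysate (412 ± 284, n = 3). P40 and S100 overlapped, as did S100 and P100, so these neighbours did not differ beyond their spread. P100 and total exRNA did not overlap, nor did total exRNA and lysate. Of tested miRNAs 14.1% were likewise higher in P100 than in total exRNA, and 19.4% in total exRNA than in lysate. The order and these overlaps were the same on unscaled shares of counts. Within a library miR-1246 was at rank 19 to 43 by counts in P40, 27 to 41 in S100, 35 to 53 in P100, 72 to 82 in total exRNA and 103 to 173 in lysate.

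miR-3651, which shares its letters with the 3′ end of SNORA84, was most abundant in the pellets and least abundant in S100. In S100 replicates 2, 3 and 4 it had 40, 56 and 27 counts, or 205, 233 and 142 CPM. P100 replicates 1 to 4 had 76, 122, 132 and 56 counts, or 4504, 5251, 5779.5 and 5681 CPM. P40 replicates 1 to 4 had 71, 69, 71 and 20 counts, or 4451, 3708, 2455 and 1581 CPM. The P100 libraries lay close together, whereas those of P40 were spread more widely, with replicate 4 the lowest. Total exRNA replicates 1 to 4 had 44, 45, 54 and 20 counts, or 1148, 666, 995 and 555 CPM. Lysate replicates 1 to 3 had 44, 188 and 72 counts, or 1535, 1391 and 1159.9 CPM. The S100 libraries were the lowest of all although they were the deepest, and each of them held more than the floor of 3 counts.

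The order of the means for miR-3651 was P100 (5304 ± 580.4 CPM, SD, n = 4), P40 (3049 ± 1279, n = 4), lysate (1362 ± 189, n = 3), total exRNA (841 ± 277, n = 4) and S100 (193 ± 46.9, n = 3). On the CPM scale no neighbours in this order overlapped. Of tested miRNAs 4.85% were likewise higher in P100 than in P40, and 12.8% in P40 than in lysate. In total exRNA 22.9% were lower than in lysate, and in S100 30% were lower than in total exRNA. On unscaled shares P100 and P40 overlapped, and so did total exRNA and lysate, so these neighbours are apart only after scaling. miR-3651 stood at rank 30 to 35 of its library in P100 and at rank 174 to 213 in S100. Its SD within groups (0.42 on the log2 CPM scale, pooled) and that of miR-1246 (0.55) were both below the median of the 227 miRNAs tested (0.72). That median covers miRNAs of every abundance and was not matched to these levels.

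**Figure D1:**
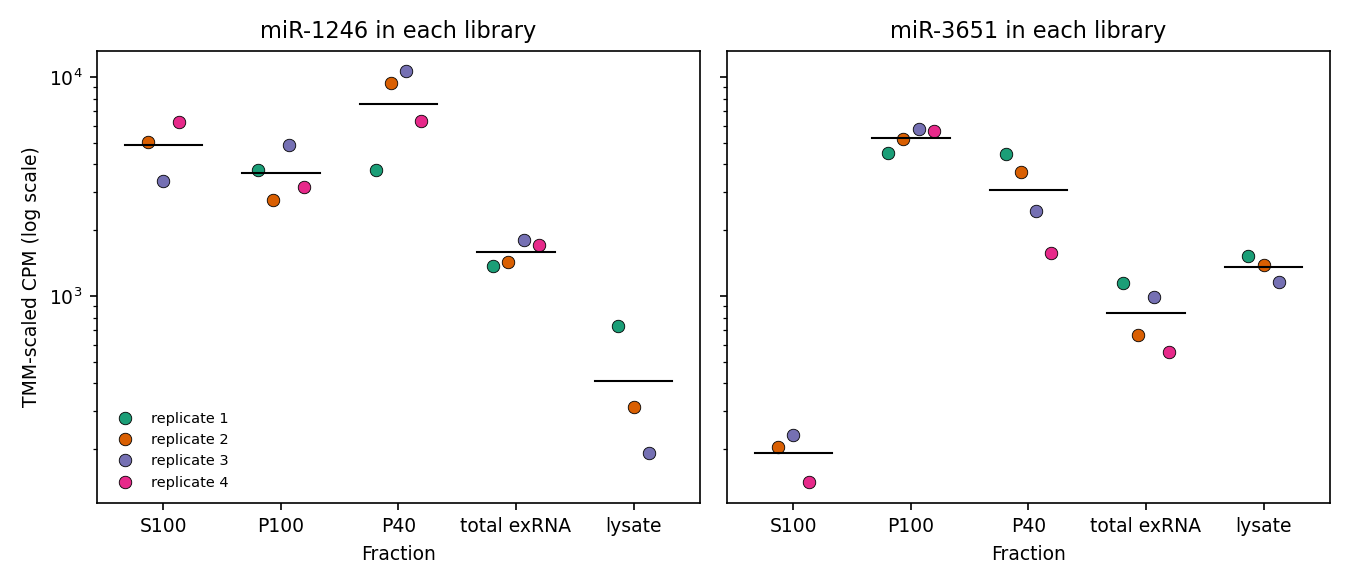
TMM-scaled CPM (log axis) of miR-1246 (left) and miR-3651 (right) in the 18 libraries, by fraction, with a line at each group mean and colours for replicate numbers. miR-1246 is lowest in the 3 lysate libraries, and miR-3651 is lowest in the 3 S100 libraries.

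The ratio of the counts of miR-1246 to those of miR-3651 within a library does not depend on scaling or depth. It was 24.6, 14.4 and 44.1 in S100 replicates 2, 3 and 4, and 0.842, 0.525, 0.848 and 0.554 in P100 replicates 1 to 4. In P40 replicates 1 to 4 it was 0.845, 2.55, 4.34 and 4.00, in total exRNA 1.20, 2.16, 1.81 and 3.10, and in lysate replicates 1 to 3 it was 0.477, 0.223 and 0.167. miR-1246 thus had more counts than miR-3651 in all 3 S100 and all 4 total exRNA libraries, and fewer in all 4 P100 and all 3 lysate libraries. P40 was divided, with replicate 1 inside the range of P100 and the other 3 libraries above it. The geometric mean was 25.0 in S100 and 0.675 in P100, the products of the same spin.

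**Figure D2:**
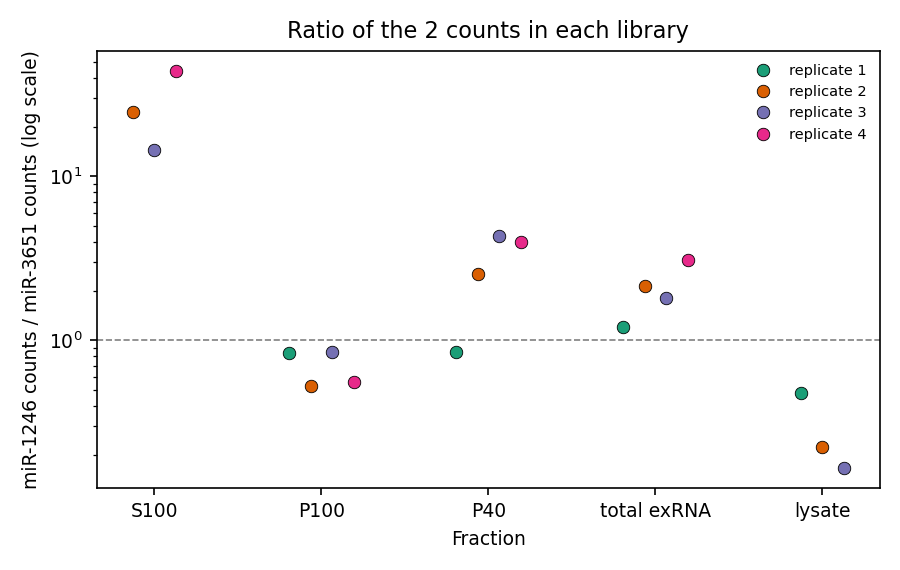
Counts of miR-1246 divided by counts of miR-3651 in each library (log axis), by fraction; the dashed line marks equal counts. S100 lies between 14.4 and 44.1, above all other libraries, and lysate lies between 0.167 and 0.477, below all others.

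Against lysate the question is which miRNAs were over- or underrepresented outside the cells, and miR-1246 was higher in each extracellular group. The 4 comparisons use the same lysate libraries. The log2 fold change, from a quasi-likelihood fit to all tested miRNAs, was 4.29 ± 0.48 in P40 (SE), 3.66 ± 0.47 in S100, 3.24 ± 0.46 in P100 and 2.03 ± 0.44 in total exRNA. In none of these did the libraries overlap. The share of tested miRNAs that were likewise higher without overlap was 12.8% in P40, 35.7% in S100, 18.9% in P100 and 19.4% in total exRNA. Nothing is read from these shares, since the values were known when the miRNA was chosen. Within each replicate number that a fraction shared with lysate the difference had the same sign, with log2 differences of 2.31 to 5.58 in P40 and of 0.89 to 3.04 in total exRNA. Without lysate replicate 1 the values were 4.91 in P40, 4.61 in S100, 3.96 in P100 and 2.70 in total exRNA. That fit also repeated the filter and scaling, whose part in the shift was not tested.

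miR-3651 did not go one way against lysate. It was higher in P100 by 1.96 ± 0.37 (log2 fold change, SE) and in P40 by 1.17 ± 0.36. The libraries did not overlap in either, as for 18.9% of tested miRNAs in that direction in P100 and 12.8% in P40. miR-3651 was lower in S100 (-2.80 ± 0.40), where the libraries did not overlap either, as was the case for 30.8% of tested miRNAs in that direction. In total exRNA the log2 fold change was -0.69 ± 0.36. There the libraries did not overlap on the CPM scale, which held for 22.9% of tested miRNAs in that direction, but they overlapped on unscaled shares (0.0581% to 0.114% in total exRNA, 0.109% to 0.120% in lysate). The S100 value was -2.18 without S100 replicate 4 and -1.78 when each library was thinned to 10017 counts, a depth at which S100 kept 2, 5 and 1 counts of miR-3651.

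**Figure D3:**
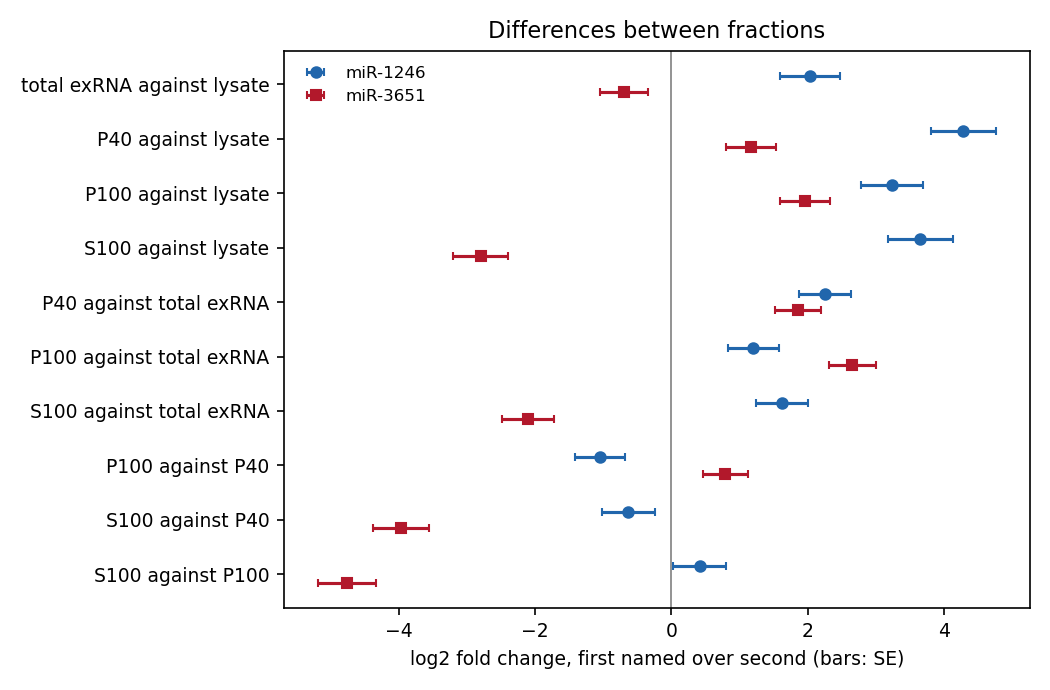
Log2 fold changes with SE of miR-1246 (circles) and miR-3651 (squares) in the 10 comparisons, the group named first over the one named after it. miR-1246 lies right of 0 in all comparisons with lysate or total exRNA, while miR-3651 lies left of 0 wherever S100 is named first.

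Against total exRNA, which asks how each fraction differed from the medium before the spins, both miRNAs were higher in the pellets. In P40 the log2 fold change was 2.25 ± 0.38 (SE) for miR-1246 and 1.86 ± 0.34 for miR-3651, which ranked 5 and 9 from the top of 227 miRNAs. In P100 it was 1.21 ± 0.37 for miR-1246 (rank 38) and 2.65 ± 0.35 for miR-3651 (rank 9). In S100 it was 1.62 ± 0.39 for miR-1246 (rank 56) but -2.11 ± 0.38 for miR-3651 (rank 186), and miR-3651 gave -1.27 at equal depth. No libraries overlapped in these comparisons. Of all tested miRNAs 6.17% in P40, 14.1% in P100 and 33.9% in S100 were higher without overlap, and 30% in S100 were lower. As a share of unscaled counts, miR-1246 made up 0.275% to 1.18% of the 11 libraries of S100, P100 and P40 and no more than 0.199% of any total exRNA library. Total exRNA thus lay below each of the 3 fractions prepared from such medium. If these fractions together make up that medium, its share cannot truly lie below all 3. The 3 differences of miR-1246 can therefore not all be read as enrichment from the medium. The cause was not tested.

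P100 against P40 asks how the pellets of the higher and the lower spin differed, and here the miRNAs pointed in opposite directions. For miR-1246 the log2 fold change was -1.05 ± 0.37 (SE). The libraries overlapped through P40 replicate 1, so they were not fully apart on this scale. On unscaled shares they lay just apart, with at most 0.414% in P100 and at least 0.417% in P40, and 9.25% of tested miRNAs were likewise lower in P100 on that scale. Within replicate numbers miR-1246 was higher in P100 in 1 of 4, with log2 differences of -1.77 to 0.01. For miR-3651 it was 0.80 ± 0.33. The lowest P100 library (4504 CPM) lay just above the highest P40 library (4451 CPM), and 4.85% of tested miRNAs were higher in P100 without overlap. In all 4 replicate numbers miR-3651 was higher in P100, but in replicate number 1 by only 0.02 on the log2 scale.

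S100 against the pellets asks what stayed in solution. For miR-1246 no difference beyond the spread is shown, with a log2 fold change of -0.63 ± 0.39 (SE) against P40 and 0.42 ± 0.39 against P100, and the libraries overlapped in both. Within replicate numbers it was lower in S100 than in P40 in 3 of 3, with log2 differences of -1.66 to -0.017, and higher in S100 than in P100 in 2 of 3. Without P40 replicate 3 the value against P40 was 0.011, and without the filter on low counts it was -0.0034, while against P100 it was 1.07 without that filter. miR-3651 was far lower in S100, by a log2 fold change of -3.97 ± 0.41 against P40 and of -4.76 ± 0.42 against P100. It ranked 217 of 227 from the highest value in each of these comparisons, in which it was lower in 3 of 3 shared replicate numbers. The libraries did not overlap, as for 25.6% of tested miRNAs lower in S100 than in P40 and 32.6% lower in S100 than in P100. Without the filter the values were -3.34 and -4.09, and at equal depth they were -3.20 against P40 and -4.07 against P100.

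Other names linked to snRNAs or snoRNAs, a picked list of 13 chosen by host RNA, had few or no counts. Of these 7 had any count, and none passed the filter on low counts, so none was tested in the fit used for the values above. miR-1248, which lies in SNORA81, had the most, with 41 counts over 18 libraries, of which 24 were in lysate, and miR-664b-5p, which lies in SNORA36A, had 30. miR-1290, which differs from U2 by 1 base, had 12 counts, of which 11 were in S100, against 4265 counts of miR-1246. The remaining names with counts were miR-664a-5p (10), miR-664a-3p (6), miR-1291 (3) and miR-6516-5p (2). Without the filter edgeR (quasi-likelihood, Benjamini-Hochberg adjusted) called miR-1248 (adjusted p = 0.0013) and miR-664b-5p (adjusted p = 0.0098) lower in S100 than in lysate. Both had 0 counts in S100 and, with 24 and 7 counts, a count in 2 of 3 lysate libraries. Lysate replicates 1 to 3 held 3, 21 and 0 counts of miR-1248 and 6, 0 and 1 of miR-664b-5p. Most of the lysate counts behind each call were thus in 1 library. In that fit 5.56% of 1043 names were called lower. The summed share of the 13 names was 0.00092% to 0.0040% in S100, 0.011% to 0.070% in P100, 0.015% to 0.076% in P40, 0.0020% to 0.012% in total exRNA and 0.0045% to 0.024% in lysate. miR-1246 and miR-3651 together had 0.383% to 0.558% in S100, 0.776% to 0.903% in P100, 0.909% to 1.45% in P40, 0.230% to 0.309% in total exRNA and 0.127% to 0.174% in lysate.

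**Figure D4:**
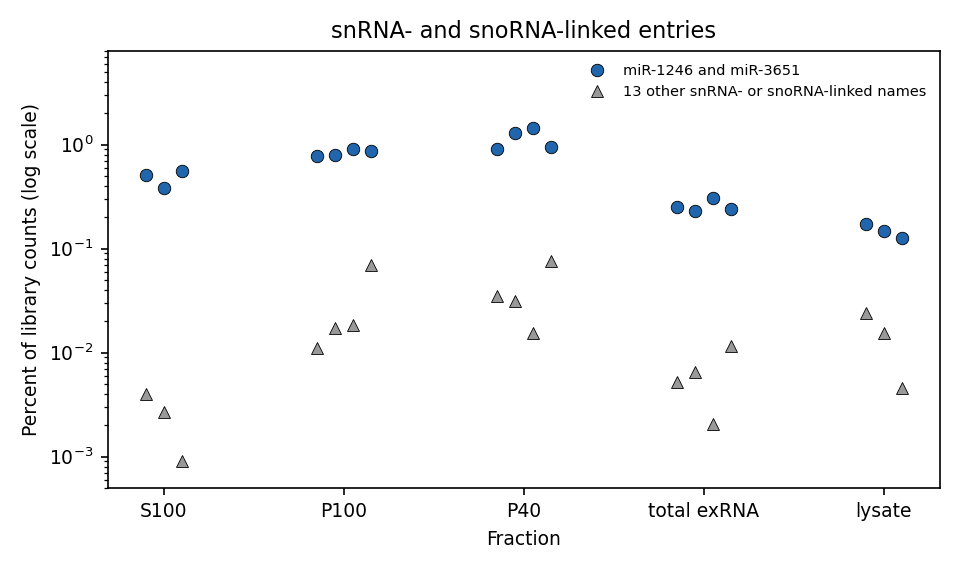
Percent of library counts (log axis) held by miR-1246 and miR-3651 together (circles) and by the 13 other names linked to snRNAs or snoRNAs (triangles) in each library. The triangles lie at or below 0.076%, under all circles.

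A search by sequence did not depend on the list. Of the 1043 listed names, 933 had a mature sequence in RefSeq and could be searched, and 9 occurred without mismatch in a GENCODE snRNA, snoRNA or small Cajal body RNA. Besides miR-1246 and miR-3651 these were 7 names with 2 to 41 counts each. They included miR-1843 in SCARNA3, which is not on the list of 13, with 2 counts.

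The miRNAs whose profiles over the 18 libraries lay closest to that of miR-1246 were miR-4690-5p (root mean square difference of centred log2 CPM 1.00), miR-193b-3p (1.04), miR-215-5p (1.19), miR-193a-5p (1.21) and miR-451a (1.23). Those closest to miR-3651 were miR-486-5p (0.96), miR-99b-5p (1.02), miR-92a-3p (1.14), miR-191-5p (1.15) and miR-12136 (1.2). Mean levels of miR-4690-5p were 449.7 CPM in S100, 94.7 in P100, 368 in P40, 97.1 in total exRNA and 0 in lysate. Those of miR-486-5p were 28.3 CPM in S100, 1559.5 in P100, 1549.9 in P40, 1276 in total exRNA and 481 in lysate. Like miR-1246, miR-4690-5p was thus lowest in lysate, and like miR-3651, miR-486-5p was lowest in S100. Both were picked for their likeness in these same libraries, so a shared lowest group follows from the choice and nothing is read from it. The P100 mean of miR-4690-5p also lay below the floor of 3 counts in each P100 library (111 to 299 CPM). The median difference over 224 candidates was 1.88 for miR-1246 and 1.97 for miR-3651. Between miR-1246 and miR-3651 themselves it was 2.06, so each was farther from the other than from the median miRNA.

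Since miR-451a and miR-486-5p are miRNAs of blood cells, the whole list of blood cell miRNAs is given beside these profiles. Of 6 names 6 had counts, and their summed share was 0.0080% to 0.015% in S100, 0.140% to 0.283% in P100, 0.273% to 0.343% in P40, 0.0900% to 0.232% in total exRNA and 0.0401% to 0.0439% in lysate. In lysate miR-451a, miR-223-3p and miR-144-3p were at 0 counts. miR-486-5p held most of the list's counts in lysate, with 105 counts there against 119 in P100 and 119 in P40. These are raw sums over libraries of unequal depth. Scaled for depth, the means of miR-486-5p were 481 CPM in lysate, 1559.5 in P100 and 1549.9 in P40. Summed over libraries miR-451a had 38 counts in S100, 46 in P100, 71 in P40, 50 in total exRNA and 0 in lysate. Its means were 62.5 CPM in S100, 592 in P100, 886 in P40, 226 in total exRNA and 0 in lysate. Likewise summed, miR-144-3p had 15 counts in S100, which has the deepest libraries, and 0 in lysate. miR-486-5p had 17 counts in S100, with a mean of 28.3 CPM. The summed share was higher in both pellets than in lysate, but in S100 the members of the list did not go one way against lysate. The part of these miRNAs in the results was not tested.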

How the data were processed

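Small RNA libraries (RealSeq-AC version 2, single reads of 50 bases) were made from 5 groups. Each deposited file holds unnormalized counts by mature miRNA name for 1 library and lists only names with a count. Per the submitters' processing notes, the authors used cutadapt 1.16, FastQC, Bowtie2 and GRCh38. Parameters, filters, the handling of reads that match several RNAs and the miRNA release are not given in the sources used here.

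Absent names were taken as 0. A library needed 100 detected miRNAs, which removed S100 replicate 1. The fit used edgeR 4.0.16 under R 4.3.3. Its filterByExpr (minimum count 10, minimum total 15) left 227 miRNAs, holding 98.5% to 99.1% of each library's counts. TMM scaling and 1 robust quasi-likelihood fit to the 5 groups followed, with Benjamini-Hochberg adjustment and a threshold of 0.05. Log2 CPM used a prior count of 2, and SE was derived from F. Shares without overlap are over all 227 miRNAs.

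The miRNAs and lists were chosen with earlier results of these data known. Named are both miRNAs, all listed names linked to snRNAs or snoRNAs, names sharing a seed, and the 5 nearest profiles among those that averaged 100 CPM or more. The count of 9 exact matches was added after the data were seen. A batch number equals the replicate number and pairs samples by label. Deviations from group means correlated at a median of -0.0019 between samples of the same number and of -0.0024 between samples of different numbers. Counts are of reads without molecular identifiers, so depth statements cover counting error only. Alternatives were other scaling, no filter, a replicate block, DESeq2 1.42.0, fits of 2 groups, equal depth, and leaving out each library.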

Additional observations from a re-analysis of the deposited data

How the results depend on the processing

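Of 304 alternative values of the 20 log2 fold changes of miR-1246 and miR-3651, 23 lay more than 1 within-group SD from the value reported, and 1 of these had another sign. With the replicate number as a block none moved by more than that SD (for example 4.27 for miR-1246 and 1.25 for miR-3651 in P40 against lysate), and no count of calls moved by over 1.5 times. Putting S100 replicate 1 back, an alternative chosen after seeing the data, moved none. For miR-3651 in S100 against lysate, median-of-ratios size factors gave -2.36 and DESeq2 -2.37. Without the filter, which shifted the median of all miRNAs in S100 comparisons by 0.45 to 0.69, miR-1246 gave 4.40 against lysate, -0.0034 against P40 and 1.07 against P100, and miR-3651 gave -2.08 against lysate, -1.65 against total exRNA, -3.34 against P40 and -4.09 against P100. At equal depth miR-3651 in S100 gave -1.78 against lysate, -1.27 against total exRNA, -3.20 against P40 and -4.07 against P100. Scaling by totals alone shifted the all-miRNA median by -0.23 to 0.35, and no value of miR-1246 or miR-3651 moved by over 1 SD.

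Leaving out 1 library at a time, miR-1246 ranged from 1.79 to 2.70 in total exRNA, 4.00 to 4.91 in P40, 3.01 to 3.96 in P100 and 3.67 to 4.61 in S100, each against lysate, with the highest value each time without lysate replicate 1 (that group then rests on 2 libraries). In S100 against P40 it ranged from -0.85 to 0.011. miR-3651 in S100 ranged from -2.61 to -2.18 against lysate, -2.16 to -1.60 against total exRNA, -3.86 to -3.43 against P40 and -4.83 to -4.29 against P100, each time nearest 0 without S100 replicate 4. The reported values of miR-3651, -2.80 against lysate and -3.97 against P40, were farther from 0 than in every such fit. For miR-1246 in S100 against lysate the reported 3.66 lay just below the range. Each of these fits also repeated the filter and scaling.

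Of all miRNAs edgeR called 80 in total exRNA, 61 in P40, 85 in P100 and 141 in S100 against lysate. At equal depth it called 50 in total exRNA, 36 in P40, 49 in P100 and 73 in S100, in a fit of P40 and lysate alone 27, and in total exRNA 53 to 74 when 1 library was left out (53 without lysate replicate 2). Each of these fits repeated the filter, so the number of miRNAs tested can differ from 227. Fewer calls are thus not fewer among the same miRNAs. Of the 13 other names linked to snRNAs or snoRNAs, 0 were called with the filter because none was tested. Without it 2 were called lower in S100 against lysate (miR-1248 and miR-664b-5p), and 3 of 7 had an unadjusted p below 0.05. Among these 3, miR-1290 went the other way, with a log2 fold change of 3.65 (edgeR quasi-likelihood, adjusted p = 0.13). The share of all names with an unadjusted p below 0.05 was not computed, so no excess is read from 3 of 7. The cause of these changes in calls was not tested. Lysate held 12 to 42 counts of miR-1246 per library, which limits the precision of differences against it.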

Other observations

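S100 replicate 1, which entered no comparison, listed 28 miRNAs and 48 counts. Both miR-1246 and miR-3651 had 0 counts there, which allows a share of up to 6.25% and so says nothing of either level in S100. In lysate replicate 1 miR-1246 made up 0.0561% of counts (95% Wilson interval 0.0367% to 0.0857%, counting error only), against 0.0267% (0.0198% to 0.0361%) in replicate 2 and 0.0182% (0.0104% to 0.0318%) in replicate 3. miR-3651 had nearly the same share in these 3 libraries, 0.109% to 0.120%. In P40 the highest share of miR-3651 was in replicate 1 (0.49%), the library with the lowest share of miR-1246 (0.417%). The structural RNAs searched in GENCODE held mitochondrial but no nuclear tRNAs, so matches to the latter could not be counted. In 4 of the 13 exact matches of listed names to structural RNAs the matched RNA was mitochondrial. Of these, miR-4485-3p had 2668 counts and miR-12136 had 617 over the 18 libraries, while miR-1973 had 22 and miR-4284 had 12.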
